A study of Schizosaccharomyces pombe
Saccharomyces cerevisiae with 24 samples.

Results

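The small, or 40S, subunit of the yeast ribosome carries proteins encoded by 56 genes, and these genes are described here across a nascent RNA experiment in Saccharomyces cerevisiae. They were taken as the rows named RPS0A to RPS31 in a member list, and all 56 were among the 7127 rows of the count tables and among the 6069 genes kept for testing. They form 24 pairs of paralogs, with copies named A and B, and 8 genes without a paralog. The deposited tables give only systematic identifiers, so the RPS names below follow the yeast nomenclature of the member list and are given with their identifiers. Diploid W303 cells were grown in raffinose and collected 60 or 20 min after galactose was added, with or without a 6 min pulse of 4-thiouracil (4sU), a uracil analog that is built into new RNA. RNA of each culture was biotinylated through its thiol groups and separated on streptavidin beads into a labeled, bound fraction and an unlabeled, unbound fraction, and total RNA was kept besides. The 3 fractions, 2 pulse conditions and 2 times gave 12 groups of 2 biological replicates, or 24 libraries. Both times, with and without 4sU, of a replicate came from 1 culture that was split, so same-numbered samples share a culture. Cells of Schizosaccharomyces pombe, themselves labeled with 4sU, were added to every sample as a spike-in. No culture before galactose was analysed here, so the comparison of times is between 60 and 20 min in galactose only.

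As background, ribosomal protein genes are among the most actively transcribed genes of growing yeast. RNA polymerase II transcribes them from promoters bound by Rap1, Fhl1, Ifh1 and Sfp1, and their transcription falls under stress or nutrient limitation through the TORC1 kinase pathway. The proteins of a subunit are needed in equal amounts, while the 2 copies of a duplicated gene can have different promoters, introns and untranslated regions. The amount of an mRNA depends on how fast it is made and how fast it is degraded. RNA labeled during a short pulse is weighted to new transcripts, and total RNA holds the transcripts that have accumulated. A high labeled to total ratio is thus found for transcripts of which a larger part is new, as long as transcripts are labeled and captured alike. The ratios here are not corrected for the uridine number or length of a transcript, and the part of these was not tested.

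Raw counts per library ranged between 1073888 in labeled RNA without 4sU and 38373886 in labeled RNA with it, and the lowest count of any of the 56 genes in any library was 28. The normalized count is the raw count divided by the S. pombe reads of the library in units of 2000000. Since S. pombe RNA carried label too and was enriched by the beads, this scale holds within a fraction and not between fractions. Counts are not divided by gene length, so levels are compared within a gene and not between genes. One library stood apart. Labeled RNA without 4sU from replicate 1 at 20 min summed to 3259246 normalized counts, against 223289.7 to 328641 in the other 3 libraries of labeled RNA without 4sU. Of the tests, it enters only the comparison of labeled RNA with and without 4sU, which is given with and without it.

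The 56 genes together took a smaller share of the counts in labeled than in total RNA. The share is given of the counts on open reading frame (ORF) identifiers, because their part of all counts differed between fractions. They took 88.3% to 92.0% of all counts in labeled RNA with 4sU and 38.8% to 43.5% in total RNA with 4sU. Rows without an ORF identifier took the rest. In labeled RNA with 4sU the 56 genes held 3.42% and 3.34% at 60 min, against 2.75% and 3.16% at 20 min. In total RNA with 4sU they held 6.60% and 6.47% at 60 min, against 6.09% and 6.05% at 20 min. All 4 labeled libraries were below all 4 total libraries. Unlabeled RNA with 4sU, from which the beads had taken labeled transcripts, gave the highest shares of the 6 kinds of library, with 12% and 12.5% at 60 min, against 8.83% and 9.68% at 20 min. Without 4sU the unlabeled fraction held 6.65% and 6.30% at 60 min, against 6.72% and 5.37% at 20 min. Total RNA without 4sU, in a similar range, held 6.43% and 6.94% at 60 min, against 5.50% and 5.75% at 20 min. The 60 min libraries lay above the 20 min libraries with no overlap in labeled, unlabeled and total RNA with 4sU and in total RNA without it, and overlapped with them in the other 2 kinds. None of this was particular to the small subunit. The 81 large subunit protein genes held 3.65% to 4.49% in labeled, 6.41% to 6.99% in total and 9.90% to 12.9% in unlabeled RNA with 4sU. Their times were apart in the same kinds of library. With 2 against 2 libraries the smallest two-sided exact permutation p is 0.333, so no test was made on these shares.

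**Figure D1:**
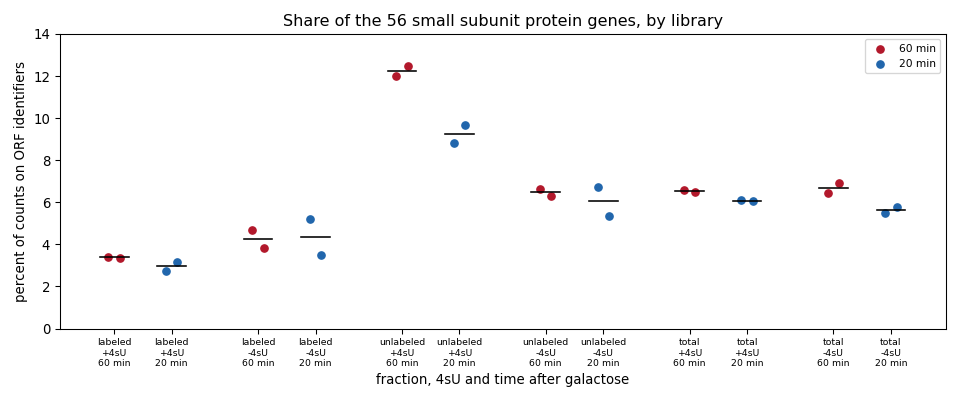
Percent of the counts on ORF identifiers that fell on the 56 small subunit protein genes (y axis), for each of the 24 libraries (points) and each group (x axis: fraction, 4sU, minutes after galactose), with the group mean as a line. Unlabeled RNA with 4sU lies highest, at 8.83% to 12.5%, and labeled RNA with 4sU lowest, at 2.75% to 3.42%.

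Between labeled and total RNA, the small subunit genes differed from each other in size and direction. Tested on all 6069 genes with edgeR's quasi-likelihood test and TMM scaling, which sets each gene against the other genes, 14 of the 56 were higher in labeled than in total RNA and 28 were lower, at an adjusted p under 0.05. Of all genes tested, 33.0% were called higher and 27.7% lower, against 25% and 50% of the small subunit genes. The median log2 fold change was -0.47 for the 56 genes and 0.05 for all genes. Their log2 fold changes ran between -2.44 and 1.81. Scaled to S. pombe in place of TMM, all 56 were called higher in labeled RNA and 0 lower, against 98.0% and 0.560% of all genes, on a scale that the fractions do not share. With replicate 1 or replicate 2 left out, the median of the 56 genes relative to that of all genes was -0.43 and -0.52. All 14 genes called higher with both replicates kept that sign in each of these fits, and so did all 28 called lower.

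The ratio was also taken sample by sample. For each of 4 samples, which are 2 cultures at 2 times, the normalized labeled count was divided by the normalized total count and by the ratio of the median gene, so that a value of 1 is the median gene. In all, 14 of the 56 genes were above the median gene in every sample, 33 were below it in every sample and 9 were on both sides. Of the 5762 genes with a ratio in all 4 samples, 37.7% were above in every sample and 36.9% below. The median SD of a small subunit gene over the 4 samples was 0.22 on the log2 scale, and the SD of the mean ratios between the 56 genes was 1.1, close to the 1.01 between all genes. The gene with the highest mean ratio lay 19.0-fold above the gene with the lowest.

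**Figure D2:**
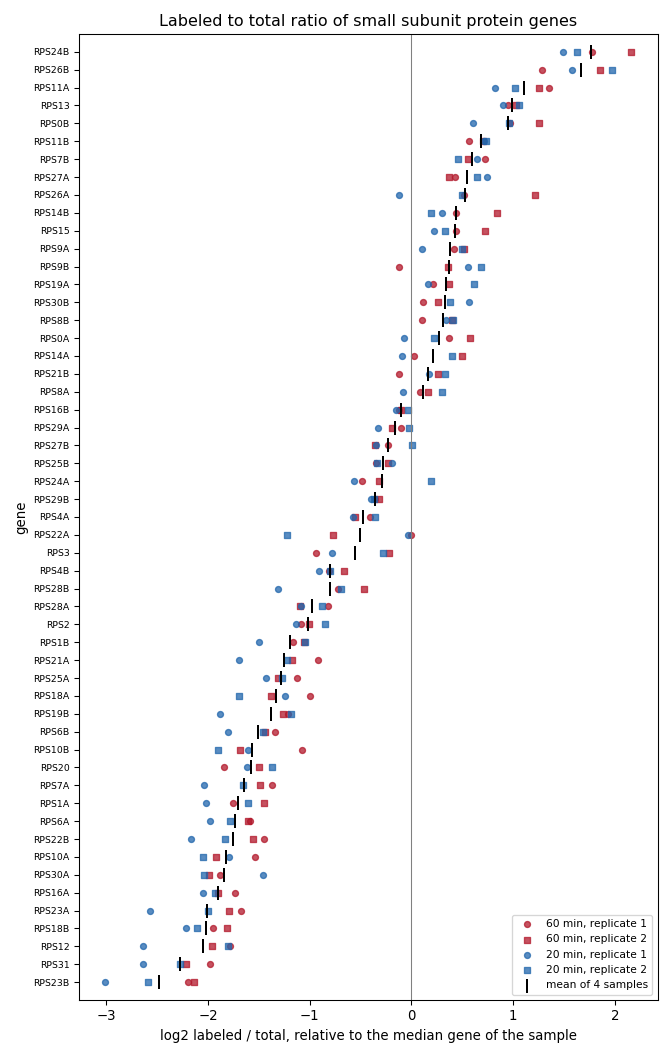
Log2 of the labeled to total ratio, relative to the median gene of the sample (x axis), for 53 of the 56 genes sorted by their mean (y axis). Points are the 4 samples, red at 60 min and blue at 20 min, with circles for replicate 1 and squares for replicate 2, and black ticks are means. Means run between 1.76 for RPS24B and -2.48 for RPS23B, and 31 of those drawn lie left of 0 in all 4 samples.

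At the top of the order stood RPS24B (YIL069C), 1 of 2 genes for Rps24, whose human counterpart is mutated in Diamond-Blackfan anemia. Its labeled to total ratio was 3.42 and 4.47 at 60 min and 2.80 and 3.09 at 20 min, in multiples of the median gene. All 4 samples were above the median gene (log2 fold change 1.81, SE 0.17, adjusted p = 1.35e-06). RPS26B (YER131W) encodes Rps26, which lies at the mRNA exit channel and is handled by the chaperone Tsr2 before assembly. Its ratio was 2.43 and 3.61 at 60 min and 2.99 and 3.91 at 20 min, again above the median gene in each sample (log2 fold change 1.69, SE 0.18, adjusted p = 3.85e-06). RPS11A (YDR025W), for a protein of the body of the subunit, had ratios of 2.56 and 2.39 at 60 min and 1.76 and 2.02 at 20 min. It was likewise called higher (log2 fold change 1.14, SE 0.19, adjusted p = 0.000183).

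At the bottom stood RPS23B (YPR132W), for a protein of the decoding center, with ratios of 0.218 and 0.227 at 60 min and 0.124 and 0.166 at 20 min. Each sample was well below the median gene (log2 fold change -2.44, SE 0.15, adjusted p = 7.22e-08). RPS31 (YLR167W), which is made as a fusion of ubiquitin and a ribosomal protein, had ratios of 0.253 and 0.215 at 60 min and 0.160 and 0.207 at 20 min (log2 fold change -2.24, SE 0.17, adjusted p = 3.18e-07). RPS12 (YOR369C), for a protein of the beak of the subunit, had 0.291 and 0.257 at 60 min and 0.161 and 0.286 at 20 min (log2 fold change -2.0, SE 0.16, adjusted p = 3.18e-07). All 3 genes were called lower in labeled RNA, and none of their 12 ratios came near 1. Labeled RNA without 4sU, the background of the pull-down, held 9.47%, 7.77% and 8.87% of the mean normalized count of RPS23B, RPS31 and RPS12 with 4sU, and 3.00%, 2.13% and 2.21% without the library that stood apart. Its part in their ratios was not tested.

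The 8 genes without a paralog also differed from each other. The ubiquitin part of RPS31 is encoded by other yeast genes too, so its reads can be shared, and the part of this in its ratio was not tested. Besides RPS31 and RPS12, 3 were called lower in labeled RNA. RPS20 (YHL015W), for a protein of the head of the subunit, had ratios of 0.279 and 0.354 at 60 min and 0.327 and 0.386 at 20 min (log2 fold change -1.55, SE 0.15, adjusted p = 1.88e-06). RPS2 (YGL123W), for a protein at the mRNA entry channel, had 0.471 and 0.497 at 60 min and 0.455 and 0.556 at 20 min (log2 fold change -0.99, SE 0.13, adjusted p = 2.24e-05). RPS3 (YNL178W), also at the mRNA entry channel and with a helicase role there, had 0.521 and 0.858 at 60 min and 0.581 and 0.826 at 20 min (log2 fold change -0.50, SE 0.16, adjusted p = 0.0133). These 3 genes were below the median gene in all 4 samples, with RPS3 nearest to it. RPS13 (YDR064W), for a protein at the interface with the large subunit, was the 1 gene of the 8 called higher, with ratios of 1.94 and 2.04 at 60 min and 1.87 and 2.07 at 20 min, which is about the same in each sample (log2 fold change 1.02, SE 0.20, adjusted p = 0.000569). RPS15 (YOL040C), whose protein has a tail that reaches the decoding center, had 1.35 and 1.65 at 60 min and 1.17 and 1.26 at 20 min, above the median gene in 4 of 4 samples but short of the threshold (log2 fold change 0.46, SE 0.20, adjusted p = 0.0604).

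The labeled to total ratio was next compared between the times. No small subunit gene was called in the interaction of fraction and time, where 3 of 6069 genes (0.0494%) were called, and 1 of the 56 had an unadjusted p under 0.05. DESeq2 called 0 of the 56 as well. The 1 gene was RPS9B (YBR189W), for a protein that affects decoding fidelity, whose ratio was 0.916 and 1.28 at 60 min and 1.47 and 1.61 at 20 min (difference of log2 fold changes -0.54, SE 0.24, adjusted p = 0.721). The 60 min values of RPS9B were below both 20 min values, though the gene was named for this difference. On the other side, RPS26A (YGL189C) had ratios of 1.43 and 2.32 at 60 min and 0.916 and 1.41 at 20 min, with a difference of 0.66 (SE 0.43, adjusted p = 0.849). RPS23B had a difference of 0.59, and RPS27A (YKL156W) and RPS24A (YER074W) had -0.30 and -0.26, with adjusted p-values between 0.77 and 0.938. None of these passed the threshold.

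Copies of 1 protein often differed in this ratio. Of the 24 pairs, 8 had both copies lower in labeled RNA, 3 had both higher, 10 had 1 copy called, 1 had none called and 2 had copies called in opposite directions. The ratio of copy A to copy B within a library needs no scaling between libraries. In 18 of 24 pairs the log2 A/B ratios of the 4 labeled libraries with 4sU did not overlap those of the 4 total libraries with 4sU, and in 9 of these the means differed by over 1. The fractions did not overlap either in 48.6% of the 35 pairs of large subunit genes. The median absolute difference between labeled and total means was 0.60 for the small subunit pairs and 0.57 for the large subunit pairs. In total RNA the A copy had the higher count in all 4 libraries in 14 pairs and the B copy in 8. Multi-mapping reads were counted, so reads of near-identical stretches can go to both copies. How much they did was not tested. Copies also differ in length, so A/B is read as a difference between fractions and not as a ratio of molecules.

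**Figure D3:**
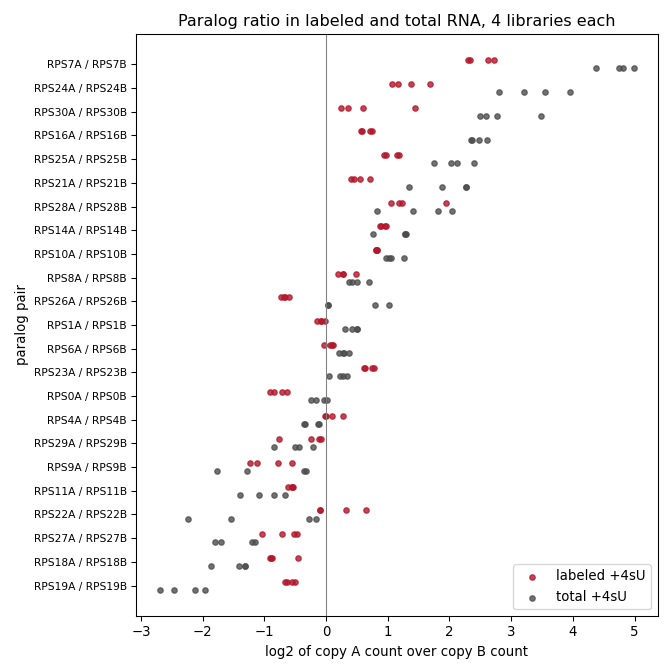
Log2 of the copy A count over the copy B count (x axis) for 23 of the 24 paralog pairs (y axis, sorted by their mean in total RNA), in the 4 labeled libraries with 4sU (red, upper) and the 4 total libraries with 4sU (grey, lower). The fractions are apart in 18 pairs, most widely for RPS7, RPS30 and RPS24.

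The largest difference was that of RPS7, a protein of the subunit body needed for 18S rRNA processing. In labeled RNA the log2 ratio of RPS7A (YOR096W) to RPS7B (YNL096C) was 2.72, 2.34, 2.30 and 2.63, the 60 min libraries first, against 4.82, 4.38, 4.99 and 4.75 in total RNA. RPS7A counts thus exceeded RPS7B counts 5.64-fold in labeled and 26.6-fold in total RNA, and this was 1 of the 2 pairs called in opposite directions. RPS7A was lower in labeled than in total RNA (log2 fold change -1.60, SE 0.12, adjusted p = 2.1e-07) and RPS7B higher (log2 fold change 0.63, SE 0.15, adjusted p = 0.00228). For RPS30, at the mRNA entry side, the log2 ratio of RPS30A (YLR287C-A) to RPS30B (YOR182C) was 0.59, 0.24, 1.45 and 0.36 in labeled and 2.59, 2.49, 3.48 and 2.78 in total RNA. In RPS24 the log2 ratio of RPS24A (YER074W) to RPS24B was 1.68, 1.07, 1.16 and 1.38 in labeled RNA, against 3.95, 3.55, 3.22 and 2.81 in total RNA. In these 3 pairs the count ratio of A to B was 4.16- to 4.72-fold lower in labeled than in total RNA. RPS19, a protein needed for 18S rRNA maturation, was the other pair called in opposite directions and was chosen after its values were seen. The log2 ratio of RPS19A (YOL121C) to RPS19B (YNL302C) was -0.55, -0.50, -0.64 and -0.67 in labeled RNA and -1.97, -2.12, -2.69 and -2.47 in total RNA, nearer to 0 in labeled RNA.

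RPS0 and RPS23 were among the pairs whose 2 counts were nearest to each other in total RNA. RPS0 (YGR214W and YLR048W), a protein that helps mature the 3' end of 18S rRNA, had log2 A/B ratios of -0.63, -0.92, -0.84 and -0.72 in labeled and -0.03, -0.24, -0.16 and 0.02 in total RNA. RPS23 (YGR118W and YPR132W) had 0.74, 0.62, 0.77 and 0.64 in labeled and 0.22, 0.27, 0.34 and 0.05 in total RNA. The RPS0 and RPS23 fractions were apart, with copy B of RPS0 and copy A of RPS23 relatively higher in labeled RNA.

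In unlabeled RNA with 4sU, which is depleted of new transcripts, some pairs had other ratios than in total RNA. From these, 2 pairs were chosen after their values were seen. Other pairs were close, such as RPS0 with mean log2 A/B ratios of -0.15 in unlabeled and -0.10 in total RNA with 4sU. RPS19 had -2.42 and -2.31. How many pairs differed was not counted. RPS9 had log2 A/B ratios of -3.42, -3.21, -2.86 and -2.36 in unlabeled RNA with 4sU, against -1.04, -0.49, -1.46 and -0.55 in unlabeled RNA without 4sU and -1.77, -1.28, -0.33 and -0.36 in total RNA with 4sU. All 4 unlabeled libraries with 4sU were below every library of the other 2 kinds. RPS14, a platform protein whose own binding to RPS14B transcripts is known to repress that copy, had 2.13, 3.03, 2.95 and 2.05 in unlabeled RNA with 4sU, against 1.31, 1.23, 0.90 and 0.79 without 4sU. In total RNA with 4sU RPS14 had 1.28, 1.30, 1.29 and 0.76. The A copy (YCR031C) was thus relatively higher over the B copy (YJL191W) in unlabeled RNA with 4sU than in any of the other 8 libraries.

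Between 60 and 20 min in galactose no small subunit gene passed the test in labeled or total RNA, and 2 did in unlabeled RNA, all on the S. pombe scale. In labeled RNA 0 of the 56 were called, while 1.35% of all genes were, and 0 of the 56 had an unadjusted p under 0.05. DESeq2 called 0 as well. The median log2 fold change, 60 over 20 min, was -0.23 for the 56 genes and -0.43 for all genes, and 51 of the 56 were above the median of all genes. The values of 1 culture decide the level: the median of the 56 genes was 0.05 without replicate 1 and -0.62 without replicate 2, and the margin over all genes was 0.05 and 0.30. Cells of the 2 yeasts were mixed at a fixed ratio in each condition before RNA was isolated. In these bulk samples an uneven mix and less RNA per cell cannot be told apart.

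RPS9A (YPL081W) lay lowest in labeled RNA. Its normalized counts were 2274 and 3699 at 60 min, against 5479 and 5205 at 20 min, with both 60 min libraries below both 20 min libraries (log2 fold change -0.84, SE 0.46, adjusted p = 0.706). RPS29B (YDL061C), for a small zinc-binding protein, had 752 and 1076 at 60 min, against 1556 and 1103 at 20 min (log2 fold change -0.54, SE 0.47, adjusted p = 0.706). RPS30A had 2269.5 and 3389 at 60 min, against 4552 and 3558 at 20 min (log2 fold change -0.52, SE 0.46, adjusted p = 0.706), again with no overlap of the times. At the other end RPS26A had 1377 and 2434 at 60 min, against 1858 and 1677 at 20 min, and RPS26B had 2274 and 3682 at 60 min, against 2996 and 2671 at 20 min. The times overlapped for both copies of RPS26, with log2 fold changes of 0.11 and 0.07 (SE 0.47 and 0.47, adjusted p = 0.895 and 0.933). RPS12 followed at -0.01 (SE 0.44, adjusted p = 0.99). These genes were named as the lowest and highest, so times that lie apart in them are no separate support.

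In total RNA with 4sU 0 of the 56 were called as well, against 1.22% of all genes, and 0 had an unadjusted p under 0.05. DESeq2 called 0. The median log2 fold change was -0.21 for the 56 genes and -0.21 for all genes. RPS9A was again lowest, with normalized counts of 243 and 290.4 at 60 min, against 546 and 376 at 20 min (log2 fold change -0.79, SE 0.47, adjusted p = 0.801). RPS28B (YLR264W), whose mRNA is known to be degraded by a feedback of its own protein through Edc3, had 186 and 238 at 60 min, against 439 and 245 at 20 min (log2 fold change -0.69, SE 0.48, adjusted p = 0.848). Both genes were lower in both 60 min libraries than in either 20 min library, which is no separate support, since they were named as the lowest. RPS22B (YLR367W) was next at -0.67 (adjusted p = 0.846). The highest were RPS26B with 133 and 114 at 60 min, against 107 and 69.5 at 20 min, RPS30B at 0.46 and RPS24A at 0.42, none past the threshold (adjusted p = 0.903, 0.916 and 0.925). Under TMM scaling RPS24A and RPS9B were called higher (log2 fold change 0.68 and 0.64) and RPS9A lower (-0.56), against 2.72% and 4.55% of all genes. The log2 ratio of RPS9A to RPS9B did not overlap between the times. It was -1.77 and -1.28 at 60 min, against -0.33 and -0.36 at 20 min in total RNA with 4sU.

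**Figure D4:**
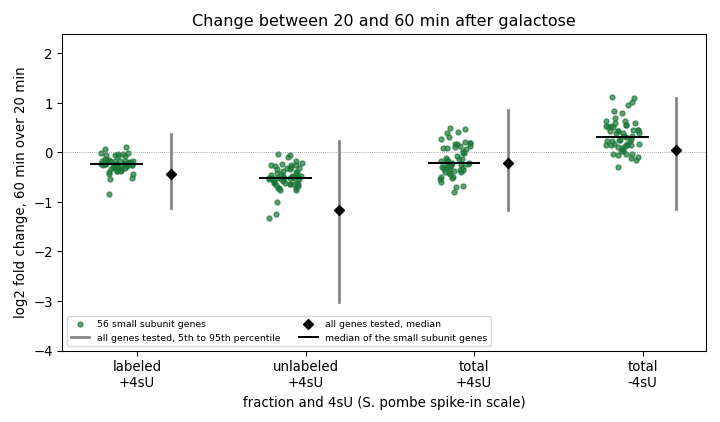
Log2 fold change of 60 over 20 min (y axis, S. pombe scale) of the 56 genes (green points, their median as a line) beside the median of all genes tested (diamond) and their 5th to 95th percentile (grey bar), in 4 kinds of RNA (x axis). In unlabeled RNA 54 of the 56 genes lie above the median of all genes, which is -1.16.

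In unlabeled RNA with 4sU 30.5% of all genes were called lower at 60 min, and all genes had a median log2 fold change of -1.16. The small subunit genes had a median of -0.52, and 54 of the 56 were above the median of all genes. Only RPS28B and RPS9A were called lower. RPS28B had normalized counts of 52.0 and 88.8 at 60 min, against 126 and 229 at 20 min (log2 fold change -1.33, SE 0.49, adjusted p = 0.0305), and RPS9A had 37.6 and 49.9 at 60 min, against 62.5 and 146 at 20 min (log2 fold change -1.25, SE 0.49, adjusted p = 0.0381). Every 60 min value of both genes was below every 20 min value, though both were named for this change. RPS24B was next at -0.99 (SE 0.53, adjusted p = 0.128). RPS30B, RPS12 and RPS31 were highest, at -0.04, -0.04 and -0.09. The calls depend on the scale and the libraries: without replicate 1 only RPS9A was called, without replicate 2 and in a fit of these 4 libraries alone 0 were called, while 27.9%, 4.63% and 1.06% of all genes were called lower in these fits. TMM scaling gave 19 higher and 0 lower, against 3.58% and 4.17% of all genes. Relative to the median of all genes the 56 genes stood 0.64 higher on the S. pombe scale and 0.69 higher under TMM.

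In total RNA without 4sU, which no pulse had touched, 0 of the 56 genes were called, against 0.840% of all genes, and 0 had an unadjusted p under 0.05. DESeq2 called 0 here too. The median log2 fold change was 0.31 for the 56 genes and 0.05 for all genes. RPS8B (YER102W) had normalized counts of 736 and 556 at 60 min, against 262 and 334 at 20 min. RPS25B (YLR333C), 1 of the genes of a protein needed for initiation at some viral internal entry sites, had 391 and 339.8 at 60 min, against 165 and 176 at 20 min, and RPS9B had 850.1 and 498 at 60 min, against 335 and 333 at 20 min. In all 3 genes the 60 min libraries were above the 20 min libraries, with log2 fold changes of 1.11, 1.1 and 1.01 (SE 0.58, 0.59 and 0.58), and the adjusted p was 1 for each. They were named as the 3 highest of this comparison, so times that lie apart in them are no separate support. The lowest were RPS23B, RPS0A and RPS11A, at -0.29, -0.15 and -0.10. The log2 ratio of RPS9A to RPS9B was -1.24 and -0.47 at 60 min, against 0.33 and -0.22 at 20 min, again lower at 60 min with no overlap. In unlabeled RNA without 4sU the times overlapped, with -1.04 and -0.49 at 60 min, against -1.46 and -0.55 at 20 min.

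All 56 genes were called higher in labeled RNA with 4sU than without it on the S. pombe scale, as were 98.8% of all genes, while TMM scaling, which equalizes the 2 kinds of library, called 0 of the 56 higher and 2 lower, against 1.42% and 3.25% of all genes. The median log2 fold change was 4.93 for the 56 genes and 5.51 for all genes. The counts without 4sU are the background of the pull-down. This background was 1.28% to 12% of the mean normalized count with 4sU, with a median of 3.56%. Without the library that stood apart it was 0.991% to 4.28%, with a median of 2.06%, and all 56 were still called higher. In that library the genes were between 0.671 and 25.6 times the mean of the other 3 libraries without 4sU.

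RPS27A, for a zinc-finger protein, had normalized counts of 1447 and 2764 at 60 min and 2542 and 2688 at 20 min with 4sU, against 28.6 and 30.6 at 60 min and 32.2 and 29.4 at 20 min without (log2 fold change 6.28, SE 0.51, adjusted p = 1.96e-06). RPS24B and RPS28B were next highest, at 6.23 and 5.98. The smallest fold change was that of RPS23B, with 4467 and 7005 at 60 min and 5828 and 6824 at 20 min with 4sU, against 220.4 and 126 at 60 min and 1742 and 197 at 20 min without (log2 fold change 3.88, SE 0.81, adjusted p = 0.000586). RPS12 was also among the lowest, at 4.03. For RPS23B and RPS12 the high value without 4sU was that of replicate 1 at 20 min, and without that library their log2 fold changes were 5.03 and 5.54. Across the 56 genes the labeled to total ratio and the background percentage had a Spearman's rho of -0.70, and of 0.13 without that library. Both measures use the labeled libraries with 4sU and genes are not independent, so this is a description. Why that library differed was not tested.

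**Figure D5:**
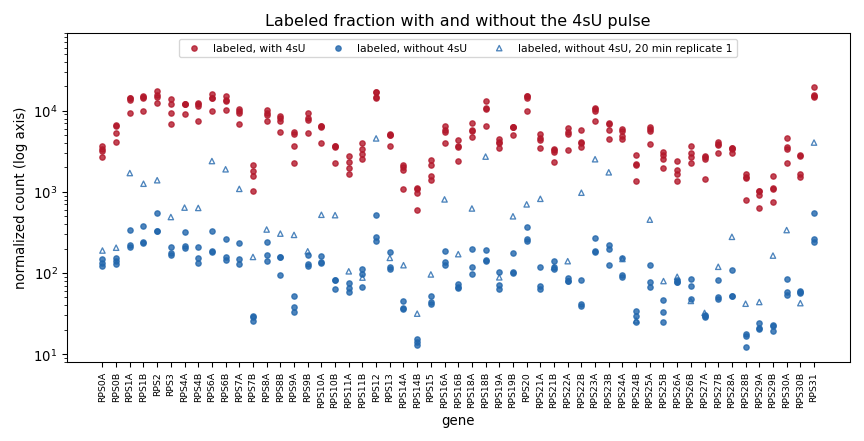
Normalized count in labeled RNA (y axis, log scale) of 53 of the 56 genes (x axis, in list order), in the 4 libraries with 4sU (red) and the 4 without (blue), with replicate 1 at 20 min without 4sU as open triangles. In every gene drawn all libraries with 4sU lie above all libraries without.

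The pulse was also compared in total RNA, which passes no pull-down. RPS27A was the 1 gene of the 56 called higher with 4sU, while 3.49% of all genes were. Its normalized counts were 153 and 239.7 at 60 min and 163 and 175 at 20 min with 4sU, against 113 and 127 at 60 min and 64.7 and 98.8 at 20 min without, so that all 4 libraries with 4sU were above all 4 without (log2 fold change 0.86, SE 0.27, adjusted p = 0.0293). RPS19A and RPS24A followed at 0.68 and 0.67 (SE 0.26 and 0.26, adjusted p = 0.116 and 0.13). The lowest were RPS9A, RPS23A (YGR118W) and RPS22B, at -0.03, 0.05 and 0.08. The median was 0.35 for the 56 genes and 0.22 for all genes. With the culture as a block 4 were called higher, RPS27A, RPS19A, RPS24A and RPS21B (YJL136C). DESeq2 called 2, TMM scaling called RPS21B in place of RPS27A, and 6 were called without replicate 1 and 0 without replicate 2. Of all genes, 6.00% were called higher with the block, 4.09% by DESeq2, 3.39% under TMM, 11.7% without replicate 1 and 0.544% without replicate 2.

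The small subunit genes were set beside genes of related roles, compiled from yeast nomenclature, since the tables annotate no identifier. Of 81 large subunit protein genes, 29 were higher and 33 lower in labeled than in total RNA under TMM (median -0.07), and 78 higher on the S. pombe scale, where 98.0% of all genes were. Under TMM 33.0% of all genes were called higher and 27.7% lower. The large subunit genes had median log2 fold changes, 60 over 20 min, of -0.19 in labeled RNA, -0.46 in unlabeled RNA and -0.02 in total RNA with 4sU, with 0, 2 and 0 of them called lower and 0 called higher, against 30.5% of all genes called lower in unlabeled RNA. Of 11 regulators of ribosomal protein genes, 8 were higher in labeled than in total RNA and 1 was lower under TMM, with a median of 1.51, and 11 were higher on the S. pombe scale. Of 12 genes for 40S assembly factors and Asc1, the yeast RACK1 protein of the 40S subunit, 2 were higher and 7 lower under TMM, and 12 were higher on the S. pombe scale. By time, 3 of the 11 regulators were called lower in unlabeled RNA, a share near the 30.5% of all genes, and 0 in labeled or total RNA, and 0 of the 12 assembly genes were called in any of these.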

How the data were processed

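The authors aligned paired-end reads with HISAT2 2.0.4 to the R64 yeast genome and counted them per gene with featureCounts, by strand, introns included and multi-mapping reads counted. They deposited these raw counts and a signal table, the counts divided by the S. pombe reads of the library over 2000000. Genes detected in 50% or more of the libraries were kept. edgeR 4.0.16 in R 4.3.3 gave quasi-likelihood tests on the counts of all 6069 genes, adjusted after Benjamini and Hochberg and called at 0.05. The tests of time and of 4sU used S. pombe reads as library sizes, and labeled against total RNA used TMM. DESeq2 1.42.0, other scalings and filters, the culture as a block, each replicate left out and fits of fewer libraries were alternatives. Ratios, shares and figures came from Python 3.11.15 and matplotlib 3.10.9, with no test.

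Same-numbered samples came from 1 split culture. The correlations of their deviations from the group means over 6069 genes ran from -0.13 to 0.26. On simulated counts with 200 genes raised or lowered by a log2 of about 2, the tests recovered between 147 (time in unlabeled RNA) and 200 of them. They made 5 to 13 false calls. The simulated spread was the same for every gene and held no difference between cultures. The recovery is thus no measure of the power for smaller changes in these data. Named genes are the 3 highest and 3 lowest in each comparison, those called where at most 10 were, the 8 genes without a paralog, and pairs ranked by their copy ratios. The values of 3 members are not reported one by one here, though all counts and medians hold them. The members and lists were chosen with earlier results of these data known. Large subunit, regulator and assembly genes come from lists written from nomenclature. Gene sequences, lengths and introns were not analysed here. The tests of time with 4sU and of labeled against total RNA drew the spread of a gene from all 12 libraries with 4sU, of all 3 fractions. The test of time without 4sU drew it from total and unlabeled RNA. The tests of 4sU took both times of a culture as separate libraries, with no culture term. With 2 replicates per group, only 2 cultures stand behind each p-value.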

Additional observations from a re-analysis of the deposited data

Results flagged for a closer look

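Among the 4 libraries of labeled RNA without 4sU, replicate 1 at 20 min lay far from the others. The 56 small subunit genes summed to 43167 normalized counts there, against 9352 and 6113 at 60 min and 6248 in replicate 2 at 20 min. Its gap to the nearest library took 0.913 of the range of the 4. This was the 1 case among 22 sets of 4 libraries or samples examined, and chance flags about 1 set in 20. The comparison of labeled RNA with and without 4sU is given above both with this library and without it.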

How the results depend on the processing

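No small subunit gene changed its call by time in labeled RNA, in total RNA without 4sU or in the interaction of fraction and time. This held under every alternative that kept both replicates. TMM scaling moved the all-gene median log2 change, 60 over 20 min, to 0.03 in labeled, 0.01 in total and -0.08 in unlabeled RNA. By time it called 2 genes higher and 1 lower in total RNA, and 19 higher and 0 lower in the unlabeled fraction. With TMM, the test of the pulse in the labeled fraction called 2 genes lower and 0 higher. RPS23B and RPS12 turned to -1.47 and -1.21 there but were not called (edgeR adjusted p = 0.0542 and 0.196). In unlabeled RNA 0 genes were lower in the fit of 4 libraries. For labeled against total RNA, S. pombe library sizes gave 56 higher and 0 lower, with RPS23B, RPS31 and RPS12 at 0.65, 0.82 and 1.06, and leaving out a replicate gave 6 to 7 higher. For 4sU in total RNA, DESeq2 called 2 genes higher and the replicate block 4. The replicate block changed no other count of calls by over 1.5 times. TMM scales each library by a trimmed mean of log ratios over its genes and the S. pombe scale uses the spike-in, so the calls differ by construction. The cause of the other differences was not tested. With 2 cultures, 1 replicate can decide a call. Leaving it out leaves 1 library in each tested group, so calls of those fits are not given.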

Other observations

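RPS22A (YJL190C) had the highest SD of the labeled to total ratio of the 56 genes over the 4 samples, 0.59 on the log2 scale, and its values followed the culture and not the time. In multiples of the median gene the ratio was 0.588 at 60 min and 0.429 at 20 min in replicate 2, and 0.994 and 0.978 in replicate 1. Normalized counts in total RNA with 4sU were 1185 at 60 min and 1211 at 20 min in replicate 2, and 473 and 602 in replicate 1. In total RNA without 4sU they were 1033 at 60 min and 737 at 20 min in replicate 2, and 368 and 279 in replicate 1, again higher in replicate 2 at both times. In labeled RNA with 4sU they were 6214 at 60 min and 5109 at 20 min in replicate 2, and 3303 and 5486 in replicate 1, which overlapped. The gene was chosen after its values were seen, and the labels give nothing that separates the cultures but their number.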
